A study of Mus musculus with 12 samples.

Results

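RNA recovered with an anti-Ythdf1 antibody was compared directly with RNA recovered with an anti-Ythdf2 antibody from the neonatal mouse retina. The 4 libraries of this comparison, out of 12 in the series, were 2 replicates of a Ythdf1 immunoprecipitate (IP) and 2 replicates of a Ythdf2 IP, all from wild-type C57BL/6 retina at postnatal day 0. They were chosen by tissue and antibody alone. The 2 retina inputs, which are total RNA with no antibody, entered the fit as a separate group, and the same antibodies in wild-type C57BL/6 cortex at embryonic day 12.5 (2 Ythdf1 IPs and 2 Ythdf2 IPs) served for comparison. Tissue was dissociated and carried through a commercial RNA immunoprecipitation kit, and stranded libraries were made from 100 ng of RNA each. No library with an unrelated antibody was among the samples. The labels do not say whether replicates came from separate animals or litters, or how many retinas were pooled. The p-values therefore measure the spread between replicate libraries, which may be technical. In the retina fit that spread is pooled over the 2 inputs as well as the 4 IPs.

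Ythdf1 and Ythdf2 are cytoplasmic proteins of the YTH family. Their YTH domain binds N6-methyladenosine (m6A), a methyl mark on internal adenosines of mRNA that is placed by the Mettl3-Mettl14 complex, often near stop codons and in long exons, at a short motif that is commonly GGACT. Ythdf1 is best known for promoting translation of the mRNAs it binds, and Ythdf2 for recruiting the CCR4-NOT deadenylase and so shortening mRNA lifetime, although the degree to which the paralogs share targets is debated. At birth the mouse retina still holds dividing progenitors beside ganglion, amacrine and horizontal cells and young photoreceptors.

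The IPs held 19530226 to 40515980 counts, of which 85.4% to 88.0% fell on ribosomal RNA loci, against 55.0% and 55.5% in the inputs. Counts in protein-coding genes were 3841319 and 3219623 in the Ythdf1 IPs, 2203418 and 2083483 in the Ythdf2 IPs, and 4088366 and 4175379 in the inputs. Levels below are normalised CPM, a gene's counts scaled to a common library size after ribosomal RNA loci were left out and libraries scaled by the trimmed mean of M values, and 3 counts correspond to 0.358 to 0.656 CPM in the IPs. A level is a gene's share of the RNA recovered, not an amount per cell, and in bulk tissue fewer cells of a type and less RNA per cell cannot be told apart. Over the 13186 genes tested, replicates were closely alike in rank (Spearman 0.970 for Ythdf1 IPs and 0.961 for Ythdf2 IPs). The 4 pairings of a Ythdf1 IP with a Ythdf2 IP gave 0.865 to 0.871. The 2 inputs were less alike, at 0.875.

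Of 13186 genes tested, 407 (3.09%) were higher and 1022 (7.75%) lower in the Ythdf1 IP than in the Ythdf2 IP at an adjusted p under 0.05 (edgeR's quasi-likelihood test with Benjamini-Hochberg adjustment), 10.8% in all. At least 2-fold were 382 of the higher and 1008 of the lower genes, a size that the test nearly required, since in simulated counts it called 3 of 100 genes changed by 1 on the log2 scale and 62 of 100 changed by 2. In the same simulation of 12831 genes, 10 genes that had not been changed were called as well. Among the called genes, 355 of the higher and 928 of the lower coded for protein. The median size on the log2 scale was 1.48 among higher genes and 1.89 among lower genes. The 2 groups did not overlap in any called gene, and they did not overlap in 69.6% of all genes tested. Relative to the inputs, which both sides share, the higher genes had a median log2 ratio of 1.21 for Ythdf1 IPs and -0.31 for Ythdf2 IPs. The lower genes stood at -1.89 for Ythdf1 IPs and 0.11 for Ythdf2 IPs, and all genes tested at -0.12 and -0.03 in the same order. Scaling by library totals raised the share of higher genes among all calls to 43.0%, from 631 higher and 838 lower genes, against 28.5% with the trimmed mean of M values. The calls depended on each IP replicate: without Ythdf1 IP replicate 1 or 2, or Ythdf2 IP replicate 1 or 2, they numbered 13, 14, 2 and 22 higher and 43, 67, 61 and 136 lower. Without input replicate 1 or 2 they numbered 2170 and 2206 higher and 2639 and 2611 lower, and with the 4 IPs alone 2323 higher and 2603 lower, so that 45.1% to 47.2% of calls were then on the higher side. The counts for gene lists given below moved with this choice, with over 1.5 times as many calls in 29 of the 31 lists with 10 or more tested members in each of these 3 fits, and calls fewer by over 1.5 times in 29 of the 31 in each of the 4 fits without an IP replicate. A fit over all 12 libraries of both tissues called 0 genes, with 1930 at an unadjusted p under 0.05. Cortex input replicate 1, which enters that fit, had 71% of its counts on mitochondrial ribosomal RNA, against 12.7% in cortex input replicate 2.

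**Figure D1:**
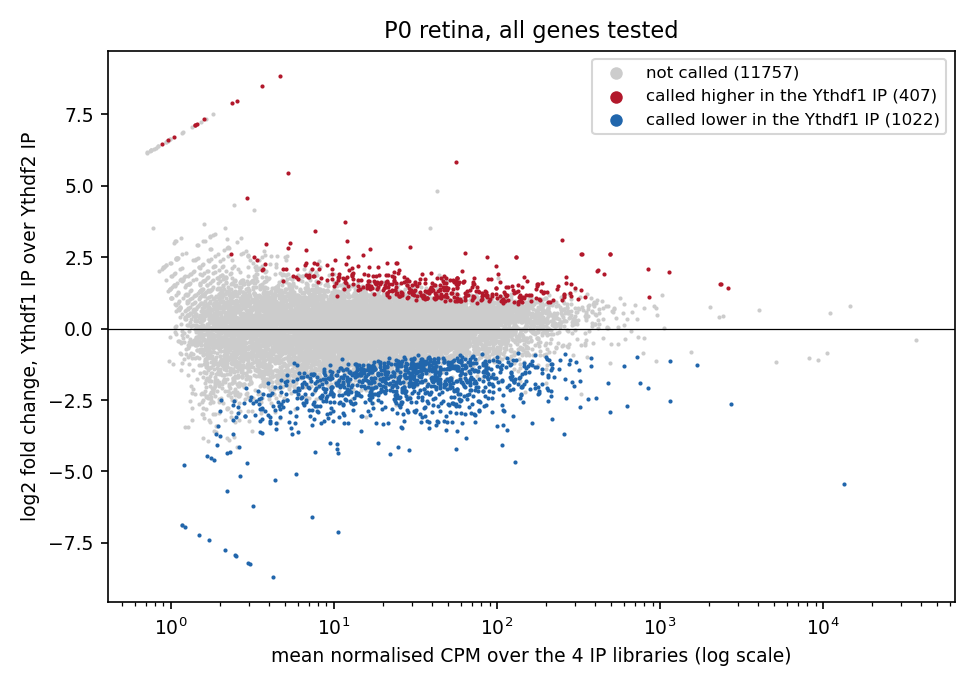
Log2 fold change of the Ythdf1 IP over the Ythdf2 IP in P0 retina against the mean normalised CPM over the 4 IP libraries (log scale), with 1 point per gene. The 407 genes called higher (red) lie above 0 and the 1022 called lower (blue) below it, and the straight lines of points at low CPM are genes with no count in 1 of the antibodies.

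The 12 leading coding genes on the lower side had log2 fold changes between -4.68 and -3.57. Selenot, a selenoprotein of the endoplasmic reticulum membrane, had 8.71 and 10.6 CPM in Ythdf1 IPs, against 263 and 234 CPM in Ythdf2 IPs, with 25.7 and 101 CPM in the inputs. Its log2 fold change was -4.68 ± 0.60 (SE, adjusted p = 0.00377). Both Ythdf1 IPs lay below both inputs and both Ythdf2 IPs above them, so that the inputs fell between the antibodies.

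Arf3, a small GTPase of Golgi transport, was the most abundant of these 12 genes and showed the same order. It had 37.9 and 36.4 CPM in Ythdf1 IPs, 491 and 461 CPM in Ythdf2 IPs, and 104 and 83.6 CPM in the inputs, a log2 fold change of -3.68 ± 0.27 (adjusted p = 0.00218). Pkib, an inhibitor of protein kinase A, had 2.15 and 1.84 CPM in Ythdf1 IPs and 43.1 and 41.6 CPM in Ythdf2 IPs, with 17.6 and 20.1 CPM in the inputs (log2 fold change -4.39 ± 0.36, adjusted p = 0.00218). Dynlt3, a dynein light chain, had 1.07 and 0.85 CPM in Ythdf1 IPs, against 20.2 and 20.1 CPM in Ythdf2 IPs, where the inputs had 12.2 and 32.7 CPM (-4.35 ± 0.58, adjusted p = 0.00409). For Dynlt3 the Ythdf1 IPs were thus far below the inputs and the Ythdf2 IPs within their range.

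The other 8 genes of the same rank were Cisd2, an iron-sulphur protein of the endoplasmic reticulum and outer mitochondrial membrane, Tvp23b of the Golgi, Cmpk1, which phosphorylates UMP and CMP, Mtpn, a binding partner of actin capping protein, Sh3bgrl, Stxbp6, a SNARE-binding protein, Tmx3, a disulphide isomerase of the endoplasmic reticulum, and Mmgt1, a subunit of the membrane insertion complex EMC. Their log2 fold changes ran from -4.22 for Cisd2 to -3.57 for Mmgt1. Mtpn had 12.4 and 11.8 CPM in Ythdf1 IPs, against 204 and 199 CPM in Ythdf2 IPs. Cisd2 had 7.04 and 4.40 CPM in Ythdf1 IPs, against 114 and 100 CPM in Ythdf2 IPs.

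The 12 leading coding genes on the higher side had log2 fold changes between 3.43 and 2.22. Pirt, a regulator of TRP channels through phosphoinositides, had 12.9 and 15.2 CPM in Ythdf1 IPs, against 1.04 and 1.53 CPM in Ythdf2 IPs, with 2.77 and 5.27 CPM in the inputs (log2 fold change 3.43 ± 0.56, adjusted p = 0.00833). Tmem121, a membrane protein, had 37.4 and 20.8 CPM in Ythdf1 IPs, 3.75 and 4.6 CPM in Ythdf2 IPs, and 0.49 and 2.23 CPM in the inputs (2.80 ± 0.57, adjusted p = 0.0182). Gstp1, a glutathione S-transferase whose near-identical neighbours Gstp2 and Gstp3 make its count uncertain, had 7.75 and 15.7 CPM in Ythdf1 IPs and 1.67 and 1.75 CPM in Ythdf2 IPs (2.76 ± 0.49, adjusted p = 0.0113). With 22.6 and 23.8 CPM in the inputs, Gstp1 was below the input in both IPs and lower by far in the Ythdf2 IP.

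Triap1, an inhibitor of apoptosis under p53 control, had 35.8 and 34.5 CPM in Ythdf1 IPs, against 6.25 and 7.88 CPM in Ythdf2 IPs (2.31 ± 0.33, adjusted p = 0.00511). Disp2, a homologue of the Hedgehog release protein Dispatched, had 34.5 and 46.8 CPM in Ythdf1 IPs, against 7.71 and 8.97 CPM in Ythdf2 IPs (2.28 ± 0.34, adjusted p = 0.00593). Myc, the transcription factor that drives growth, had 10.3 and 15.7 CPM in Ythdf1 IPs, against 1.87 and 3.50 CPM in Ythdf2 IPs (2.27 ± 0.55, adjusted p = 0.0331). The others were Pars2, a mitochondrial prolyl-tRNA synthetase, at 2.59, Ninj1, a mediator of plasma membrane rupture, at 2.51, Lsm10 of the U7 ribonucleoprotein at 2.40, Svbp, a partner of the tubulin carboxypeptidase vasohibin, at 2.28, Dio3, which inactivates thyroid hormone, at 2.28, and Tppp3, a tubulin-binding protein, at 2.22, all log2 fold changes. The largest adjusted p among these 12 genes was that of Myc.

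**Figure D2:**
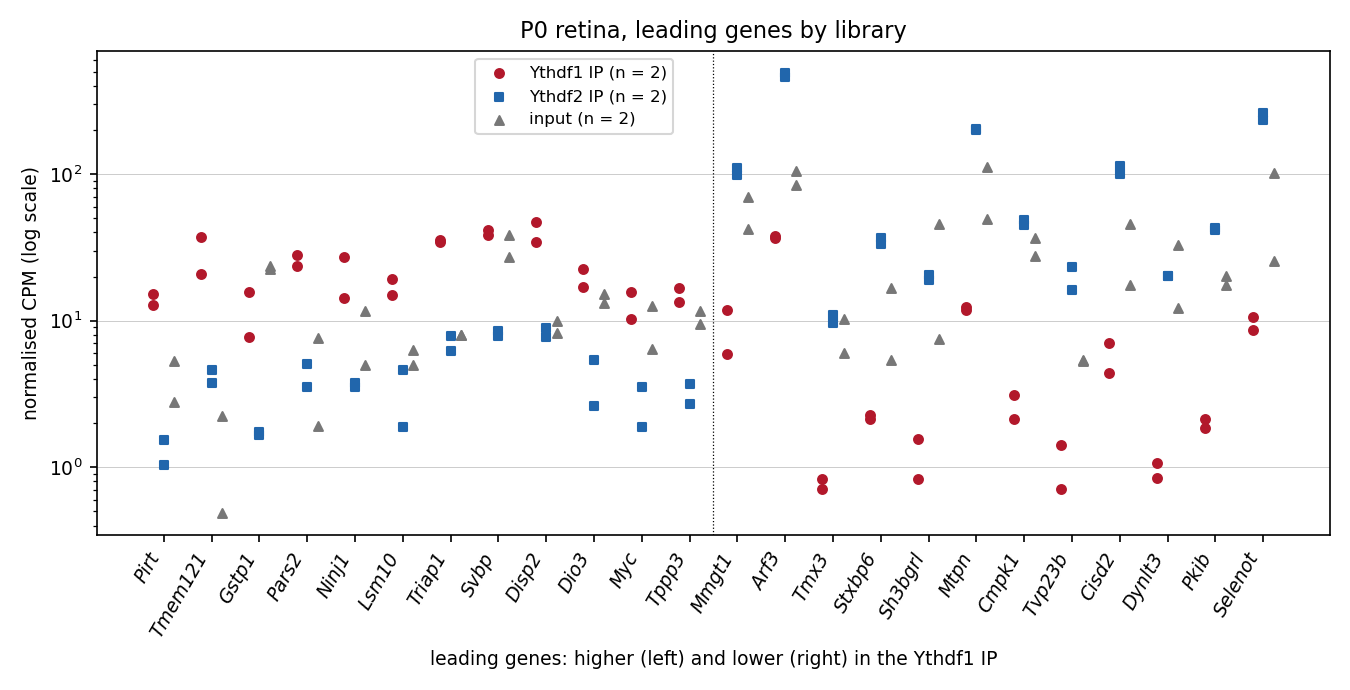
Normalised CPM (log scale) of the 24 leading coding genes in each P0 retina library, with Ythdf1 IPs as red circles, Ythdf2 IPs as blue squares and inputs as grey triangles. The 12 genes left of the dotted line are higher and the 12 on the right lower in the Ythdf1 IP, and the replicates of an antibody do not overlap those of the other in any of them.

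The coding ends of 2 leading genes on the higher side and 3 on the lower side are shown because the base composition of transcripts differed between the called groups, as described further on. Each line gives the last 60 coding bases of the transcript, stop codon included, from GENCODE M21 on GRCm38, 5′ to 3′, with the third base of each codon in capitals. The first 2 were higher and the last 3 lower in the Ythdf1 IP.
Tmem121: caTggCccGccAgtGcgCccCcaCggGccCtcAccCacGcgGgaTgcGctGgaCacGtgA
Gstp1: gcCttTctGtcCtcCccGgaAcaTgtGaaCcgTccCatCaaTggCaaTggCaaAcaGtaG
Selenot: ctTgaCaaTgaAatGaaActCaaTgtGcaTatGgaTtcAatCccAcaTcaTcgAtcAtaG
Pkib: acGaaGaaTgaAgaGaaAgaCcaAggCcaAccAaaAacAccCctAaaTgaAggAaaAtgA
Dynlt3: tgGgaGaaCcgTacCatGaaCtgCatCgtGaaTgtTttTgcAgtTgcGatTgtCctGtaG
Counting the third base of each codon, G or C stood in 15 of 20 codons for Tmem121 and 13 of 20 for Gstp1, and in 7 of 20 for Selenot, 6 of 20 for Pkib and 13 of 20 for Dynlt3. Over the whole coding sequence that share was 76.2% and 70.6% for Tmem121 and Gstp1, and 53.6%, 44.3% and 50.4% for Selenot, Pkib and Dynlt3. Tmem121 lies on chromosome 12 from 113185930 to 113189523 on the plus strand. Selenot lies on chromosome 3 from 58576636 to 58593133 on the plus strand, and Dynlt3 on chromosome X from 9654267 to 9663003 on the minus strand.

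Of the mRNAs of the m6A machinery itself, 1 of 13 readers and 1 of 12 writers and erasers passed the test, against 10.8% of all genes. Ythdf1 mRNA had 77.8 and 85.1 CPM in Ythdf1 IPs, against 79.1 and 68.1 CPM in Ythdf2 IPs, a log2 fold change of 0.15 ± 0.26 (adjusted p = 0.746). Ythdf2 mRNA had 55.8 and 66.9 CPM in Ythdf1 IPs, against 44.2 and 37.4 CPM in Ythdf2 IPs (0.59 ± 0.40, adjusted p = 0.368), and Ythdf3 mRNA 42.6 and 47.9 CPM, against 49.6 and 44.0 CPM (-0.05 ± 0.52, adjusted p = 0.964). Of 13 readers and m6A-linked binders, 0 were higher and 1 was lower, namely Hnrnpa2b1, a nuclear RNA-binding protein, with 73.2 and 76.6 CPM in Ythdf1 IPs, against 241 and 201 CPM in Ythdf2 IPs (-1.56 ± 0.37, adjusted p = 0.0318). Of 12 writers and erasers, 0 were higher and 1 was lower. That gene was Alkbh5, an m6A demethylase, with 137 and 129 CPM in Ythdf1 IPs and 282 and 269 CPM in Ythdf2 IPs (-1.05 ± 0.25, adjusted p = 0.0334).

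Among 35 genes of mRNA deadenylation and decay, the machinery with which Ythdf2 works, 1 was higher and 3 were lower. Of all genes 3.09% were higher and 7.75% lower. The list's median log2 fold change was -0.23 against 0.01 over all genes tested. Tob1, an antiproliferative adaptor of the CCR4-NOT deadenylase, was the higher one, with 92.8 and 84.1 CPM in Ythdf1 IPs, against 22.7 and 33.9 CPM in Ythdf2 IPs (1.64 ± 0.29, adjusted p = 0.0103). The lower ones were the deadenylase Cnot6l at -1.96, the 5′ exonuclease Xrn1 at -1.66 and the CCR4-NOT ubiquitin ligase Cnot4 at -1.50. Cnot6l had 7.28 and 8.37 CPM in Ythdf1 IPs, against 29.2 and 31.9 CPM in Ythdf2 IPs.

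Strn, Kalrn, Ubr4, Islr2 and Hspa12a are genes that work on Ythdf2 in retinal ganglion cells has followed, and 1 of the 5 differed between the antibodies. Strn, a scaffold of the STRIPAK phosphatase complex, had 24.0 and 26.9 CPM in Ythdf1 IPs, 124 and 99.1 CPM in Ythdf2 IPs, and 14.5 and 51.7 CPM in the inputs. Its log2 fold change was -2.13 ± 0.50 (adjusted p = 0.0316), both Ythdf1 IPs lying within the range of the inputs and both Ythdf2 IPs above it. Kalrn, a guanine nucleotide exchange factor of dendritic spines, had 67.7 and 75.6 CPM in Ythdf1 IPs, against 65.4 and 66.1 CPM in Ythdf2 IPs (0.12 ± 0.26, adjusted p = 0.789). Ubr4, a ubiquitin ligase, had 537 and 509 CPM in Ythdf1 IPs, 327 and 329 CPM in Ythdf2 IPs, and 145 and 99.3 CPM in the inputs. Both antibodies thus recovered Ubr4 above the inputs, and its log2 fold change between them of 0.67 ± 0.26 did not pass (adjusted p = 0.132). The overlapping gene Emc1 held 12.01% as many counts as Ubr4. Islr2, a leucine-rich repeat protein of axons, stood at 0.38 ± 0.34 (adjusted p = 0.501) and Hspa12a, a distant Hsp70 relative, at -0.25 ± 0.33 (adjusted p = 0.660).

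Mitochondrially encoded mRNAs stood lower in the Ythdf1 IP. Of the 13 protein-coding genes of the mitochondrial genome, 0 were higher and 9 were lower, against 7.75% of all genes lower, with a median log2 fold change of -1.95. All 13 had both Ythdf1 IPs below both Ythdf2 IPs, as did 34.5% of all genes. Their summed level was 1000 and 1081 CPM in Ythdf1 IPs, 4130 and 4186 CPM in Ythdf2 IPs, and 85965 and 150398 CPM in the inputs, so that both antibodies recovered these RNAs far below the inputs. mt-Nd6, a complex I subunit, had 40.1 and 47.4 CPM in Ythdf1 IPs, against 397 and 389 CPM in Ythdf2 IPs (-3.17 ± 0.37, adjusted p = 0.00304). It lies opposite mt-Nd5, and the median GC content of the list was 37.1%, against 50.5% for all genes tested. With the GC trend removed, as described further on, 3 of the 13 were called lower and the median was -0.46.

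Nuclear genes of oxidative phosphorylation numbered 1 higher and 9 lower of 74 (median -0.20), against 3.09% higher and 7.75% lower of all genes. Cox7c of complex IV had 18.4 and 18.7 CPM in Ythdf1 IPs, against 76.9 and 65.9 CPM in Ythdf2 IPs (-1.94 ± 0.28, adjusted p = 0.00508), and Sdhc of complex II stood at -1.66. The higher one was Ndufb7 of complex I at 1.2 ± 0.30 (adjusted p = 0.0366).

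Among 84 cytosolic ribosomal protein genes, 3 were higher and 9 lower, close in share to all genes tested, and the median was 0.01. The members went apart: Rps3 had 285 and 239 CPM in Ythdf1 IPs, against 82.1 and 95.0 CPM in Ythdf2 IPs (1.57 ± 0.27, adjusted p = 0.0102). Rps3a1 had 71.7 and 66.9 CPM in Ythdf1 IPs, against 276 and 301 CPM in Ythdf2 IPs (-2.06 ± 0.24, adjusted p = 0.00304). Rps4l at 1.41 was also higher, and Rpl35a at -1.70 was among the lower ones. Ribosomal protein genes have many processed copies, which makes their counts uncertain, and Rps3 holds Snord15b within it.

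Of 60 translation factors, 3 were higher and 9 lower, against 3.09% higher and 7.75% lower of all genes. Eef2, the elongation factor that moves the ribosome along, had 3881 and 3742 CPM in Ythdf1 IPs, against 1346 and 1482 CPM in Ythdf2 IPs (1.43 ± 0.33, adjusted p = 0.0287). Eif4g2, which initiates translation without the cap-binding protein, had 321 and 321 CPM in Ythdf1 IPs, against 1503 and 1237 CPM in Ythdf2 IPs (-2.09 ± 0.26, adjusted p = 0.00341). The other higher factors were 2 subunits of the exchange factor of Eif2, Eif2b1 at 1.89 and Eif2b2 at 1.56, and the helicase Eif4a2 at -1.89 was a further lower one. Overlapping small RNA genes held 12.3% as many counts as Eif4g2 and 50.9% as many as Eif4a2.

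Proteasome subunits numbered 1 higher and 5 lower of 34, with the higher one, Psma7, at 0.99 ± 0.27 (adjusted p = 0.0497) and the lower ones, Psma5, Psma2, Psma3, Psmd11 and Psmb7, between -2.39 and -0.999. Genes of translocation and folding in the endoplasmic reticulum numbered 0 higher and 8 lower of 36 (median -0.28), against 3.09% higher and 7.75% lower of all genes. Ssr3, of the complex associated with the translocon, had 11.9 and 12.2 CPM in Ythdf1 IPs, against 87.3 and 95.0 CPM in Ythdf2 IPs (-2.92 ± 0.35, adjusted p = 0.00309), and Spcs3 of the signal peptidase stood at -2.55 ± 0.43 (adjusted p = 0.0091).

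Small nuclear RNAs were called mostly on the higher side. Of 66 genes annotated as small nuclear RNA, 25 were higher and 2 lower, against 3.09% higher and 7.75% lower of all genes. Their median log2 fold change was 0.89. Their summed level was 6730 and 7484 CPM in Ythdf1 IPs, 1382 and 1833 CPM in Ythdf2 IPs, and 15962 and 16685 CPM in the inputs. Rnu2-10, a copy of the U2 RNA of the spliceosome, had 504 and 633 CPM in Ythdf1 IPs, against 77.3 and 108 CPM in Ythdf2 IPs (2.62 ± 0.29, adjusted p = 0.00289), and the U1 copy Rnu1b6 stood at 1.78. Copies of these RNAs share their sequence, so the 25 genes are not independent counts.

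Of 61 genes annotated as small nucleolar RNA, which guide the modification of other RNAs, 1 was higher and 5 were lower. Of 13 small Cajal body RNAs 1 was higher and 3 were lower, and of all genes 3.09% were higher and 7.75% lower. Scarna2 had 733 and 783 CPM in Ythdf1 IPs, 3708 and 5713 CPM in Ythdf2 IPs, and 436 and 376 CPM in the inputs (-2.64 ± 0.32, adjusted p = 0.00312). Gm22009, annotated as a small Cajal body RNA and named here after its values were seen because it was the most abundant called gene, had 626 and 603 CPM in Ythdf1 IPs, against 21365 and 31495 CPM in Ythdf2 IPs (-5.43 ± 0.44, adjusted p = 0.00218). With 9783 and 5537 CPM in the inputs, Gm22009 was below the input in the Ythdf1 IP and above it in the Ythdf2 IP. Of the 40 small RNAs listed by name, which include spliceosomal RNAs such as Rnu2-10 and Rnu1b6, 6 were higher and 5 lower, the lower ones being Scarna2, Snord13, Rnu1a1, Snora62 and Snord17.

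Replication-dependent histone genes, whose mRNAs lack a poly(A) tail, numbered 3 higher and 0 lower of 64, against 3.09% and 7.75% of all genes. Both Ythdf1 IPs were above both Ythdf2 IPs in 45 of the 64, against 35.1% of all genes. The list's median log2 fold change was 0.59, but 0.21 with the GC trend removed and 0.37 without Ythdf2 IP replicate 1. Without either input 29 histone genes were called higher, with the 4 IPs alone 30, and without any 1 IP replicate 0. The fit of the 4 IPs alone called 2323 of all 13186 genes higher. Hist3h2ba had 62.4 and 52.3 CPM in Ythdf1 IPs, against 19.4 and 22.8 CPM in Ythdf2 IPs (1.44 ± 0.30, adjusted p = 0.0205), and Hist1h2bn and Hist1h2bf stood at 1.2 and 1.14. Histone genes of a class are alike in sequence, which makes single counts uncertain.

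In the Wnt, insulin and Notch pathways 4 of 37, 5 of 33 and 4 of 30 genes were called, against 10.8% of all genes. Gsk3b, the kinase that marks β-catenin for destruction and is inhibited by Akt, had 118 and 111 CPM in Ythdf1 IPs, 856 and 880 CPM in Ythdf2 IPs, and 90.1 and 224 CPM in the inputs (-2.92 ± 0.41, adjusted p = 0.00487). Both Ythdf1 IPs were within the range of the inputs, and both Ythdf2 IPs were above it. Among 37 Wnt pathway genes, 2 were higher and 2 lower: the receptors Fzd2 (1.76 ± 0.33, adjusted p = 0.0144) and Fzd1 (1.60 ± 0.41, adjusted p = 0.0395) were higher, and Gsk3b and the transcription factor Tcf7l2 (-1.97 ± 0.34, adjusted p = 0.0102) were lower. Fzd2 had 63.7 and 67.9 CPM in Ythdf1 IPs, against 18.7 and 20.1 CPM in Ythdf2 IPs.

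Of 33 genes of the insulin, Akt and mTOR pathway, 1 was higher and 4 were lower. Irs2, an adaptor of the insulin receptor, had 95.1 and 89.3 CPM in Ythdf1 IPs, against 39.8 and 41.6 CPM in Ythdf2 IPs (1.18 ± 0.25, adjusted p = 0.0205). Pdpk1, the kinase that activates Akt, had 62.6 and 67.5 CPM in Ythdf1 IPs, against 200 and 221 CPM in Ythdf2 IPs (-1.70 ± 0.26, adjusted p = 0.00645). Gsk3b was lower too, as was Rheb, the GTPase that activates mTORC1, at -2.12.

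Notch pathway genes numbered 2 higher and 2 lower of 30. The receptor Notch2 (0.95 ± 0.24, adjusted p = 0.0408) and the Hes-related repressor Heyl (1.25 ± 0.26, adjusted p = 0.0205) were higher. Rbpj, the DNA-binding partner of the Notch intracellular domain, had 50.4 and 50.8 CPM in Ythdf1 IPs, against 133 and 135 CPM in Ythdf2 IPs (-1.40 ± 0.29, adjusted p = 0.0198). Mib1, the ligase that internalises Notch ligands, stood at -1.71 ± 0.39 (adjusted p = 0.0274).

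Among 27 plexins, semaphorins and neuropilins, which guide axons, edgeR called 0, against 10.8% of all genes. Both Ythdf1 IPs were above both Ythdf2 IPs in 19 of the 27, against 35.1% of all genes, and the median log2 fold change was 0.47. The count of 0 depended on the inputs, since 12 and 13 were higher and 2 lower without input replicate 1 or 2, and 13 higher and 3 lower with the 4 IPs alone. The fit of the 4 IPs alone called 2323 higher and 2603 lower of all 13186 genes. Ephrins, Eph receptors, Slit, Robo and netrin genes numbered 1 higher and 0 lower of 33 in the main fit, the higher one being the ligand Efna4 (1.80 ± 0.41, adjusted p = 0.0276). The 61 protocadherins, which are adhesion molecules of neurons, had 1 higher and 0 lower. That gene, Pcdhb21, had 10.4 and 4.11 CPM in Ythdf1 IPs and no count in the Ythdf2 IPs or the inputs, and was at least 11.3-fold higher when each Ythdf2 IP was set to the floor of 3 counts. It entered the test only through its counts in the Ythdf1 IPs. The overlapping gene Pcdhb22 held 453% as many counts.

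Genes that shape dendrites and spines numbered 1 higher and 5 lower of 39, against 3.09% higher and 7.75% lower of all genes. Of the lower ones 3, Cdc42, Rac1 and Rhoa, encode small GTPases that act on actin. Cdc42 had 24.2 and 26.8 CPM in Ythdf1 IPs, against 102 and 95.2 CPM in Ythdf2 IPs (-1.95 ± 0.25, adjusted p = 0.00385), and Rac1 and Rhoa stood at -2.01 and -1.90. The remaining lower ones were Strn and Wasf1, an activator of actin branching downstream of Rac, at -1.34. Cyfip2, a partner of the same actin complex, was higher at 0.95 ± 0.25 (adjusted p = 0.0448).

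Presynaptic and vesicle genes numbered 0 higher and 3 lower of 29 (median -0.27), against 3.09% higher and 7.75% lower of all genes. Vamp2, the vesicle SNARE of synaptic release, had 27.0 and 26.7 CPM in Ythdf1 IPs, 225 and 221 CPM in Ythdf2 IPs, and 285 and 187 CPM in the inputs (-3.05 ± 0.29, adjusted p = 0.00281). For Vamp2 the Ythdf1 IPs lay below the inputs and the Ythdf2 IPs within their range. Cplx2, which clamps SNARE complexes, stood at -1.16.

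Of 34 genes of the neuronal cytoskeleton and axon growth, 4 were higher and 3 lower, against 3.09% higher and 7.75% lower of all genes. The higher ones were the β-tubulins Tubb2b, Tubb2a and Tubb3 and the microtubule-associated Map1a. Tubb2b had 1361 and 1377 CPM in Ythdf1 IPs, 304 and 340 CPM in Ythdf2 IPs, and 576 and 437 CPM in the inputs (2.09 ± 0.26, adjusted p = 0.00373), Tubb2a stood at 1.65 and Tubb3 at 1.42. Tubb2a and Tubb2b are near-identical, and reads may be shared between them. Stmn1, which destabilises microtubules, had 236 and 169 CPM in Ythdf1 IPs, against 806 and 714 CPM in Ythdf2 IPs (-1.91 ± 0.29, adjusted p = 0.00593). Dcx, a microtubule-stabilising protein of migrating neurons, stood at -1.92 and Marcks, which binds actin at the membrane, at -1.04. Of 38 kinesins and dyneins, 0 were higher and 1 was lower, Kif2a at -1.81.

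Cell cycle genes numbered 0 higher and 7 lower of 34, against 3.09% higher and 7.75% lower of all genes. The count was 1 higher and 3 lower with the GC trend removed, and 1 higher and 4 lower with library totals. Ccnd1, the D-type cyclin of retinal progenitors, had 984 and 1001 CPM in Ythdf1 IPs, 2413 and 2342 CPM in Ythdf2 IPs, and 3718 and 2322 CPM in the inputs (-1.26 ± 0.31, adjusted p = 0.0336), and Pcna, the sliding clamp of replication, stood at -1.34. Immediate early and heat shock genes numbered 6 higher and 2 lower of 25. Egr1, a transcription factor induced by activity, had 258 and 248 CPM in Ythdf1 IPs, against 106 and 85.8 CPM in Ythdf2 IPs (1.40 ± 0.27, adjusted p = 0.0161). Junb stood at 1.93 but overlaps Prdx2, which held 621% as many counts. The 2 lower genes were the chaperones Dnaja1 at -2.11 and Hspe1 at -1.58, each overlapping another gene with 83.0% and 93.7% as many counts.

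The remaining lists are read against 3.09% higher and 7.75% lower of all genes. Of 45 chromatin regulators 1 was lower, Eed of the Polycomb complex at -1.36, and 0 were higher. With the 4 IPs alone, 20 of the 45 were higher and 4 lower, but that fit called 2323 higher and 2603 lower of all 13186 genes. Of 20 glycolysis enzymes, Gpi1 was higher at 1.24 and Pgam1 lower at -1.98. Solute carrier genes numbered 2 higher (Slc8a3 at 1.15 and Slc52a2 at 1.60) and 10 lower of 192, Slc25a16 at -2.17 and Slc31a1 at -2.01 among them. Zinc finger genes named Zfp numbered 15 higher and 7 lower of 307, with a median of 0.34. Zfp407 stood at 2.05 and Zfp521 at 1.46, and Zfp46 at -2.64 and Zfp706 at -1.63.

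**Figure D3:**
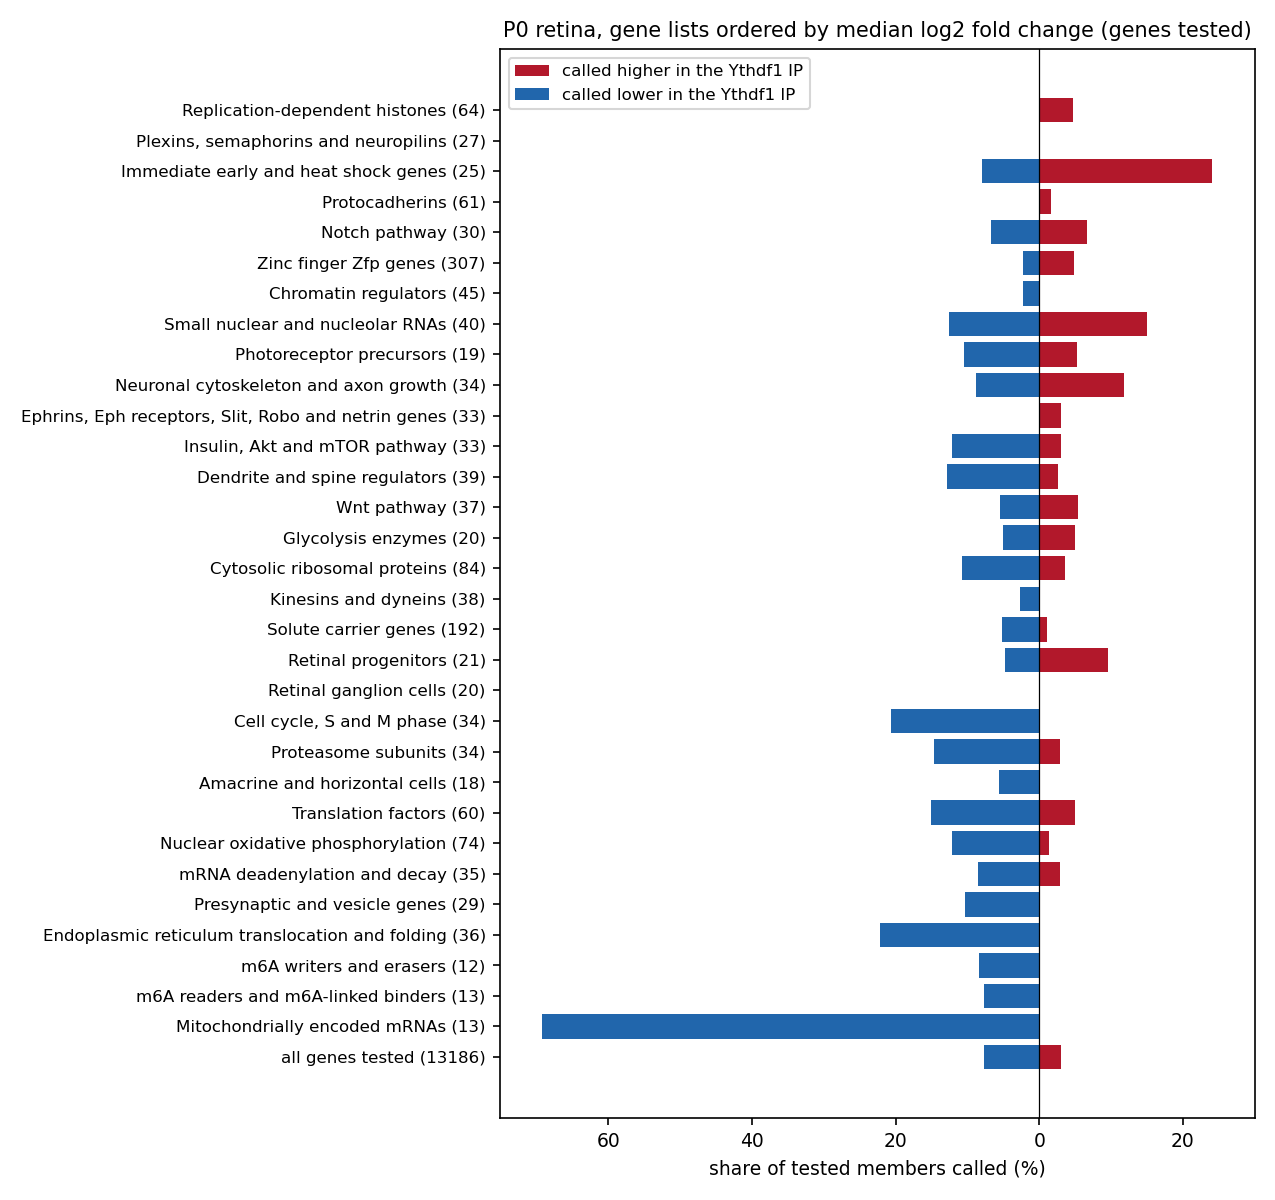
Share of tested members called higher (red, right of 0) and lower (blue, left of 0) in the Ythdf1 IP for each gene list with 10 or more tested members, ordered by the list's median log2 fold change from high to low, with all 13186 genes at the bottom. Mitochondrially encoded mRNAs have the longest bar, 9 of 13 called lower, and immediate early and heat shock genes the longest on the higher side, 6 of 25.

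Most markers of the retinal cell types were present in the IPs. All 21 progenitor markers and all 20 ganglion cell markers were tested, and 18 of 19 amacrine and horizontal cell markers and 19 of 22 photoreceptor markers. Calb1 of horizontal cells and the cone genes Opn1mw and Arr3 were at 0 in all 4 IPs and in both inputs. Calls are read against the 10.8% of all genes. Among progenitor markers 2 were higher and 1 lower: the proneural factor Neurog2 (1.32 ± 0.26, adjusted p = 0.0155) and Olig2 (1.27 ± 0.32, adjusted p = 0.0385) were higher, and Ccnd1 was lower. Of the 20 ganglion cell markers edgeR called 0, with log2 fold changes between -1.29 and 1.49. Of 18 amacrine and horizontal cell markers, 0 were higher and 1 was lower, Gad2, which makes the transmitter GABA, with 15.9 and 19.3 CPM in Ythdf1 IPs, against 57.9 and 68.1 CPM in Ythdf2 IPs (-1.84 ± 0.39, adjusted p = 0.0213).

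Of the 19 photoreceptor markers tested, 1 was higher and 2 were lower. Rbp3, the retinoid-binding protein of the space around photoreceptors, had 1202 and 1152 CPM in Ythdf1 IPs, 543 and 548 CPM in Ythdf2 IPs, and 275 and 179 CPM in the inputs (1.11 ± 0.28, adjusted p = 0.0368), so both antibodies recovered it above the inputs. Crx, the homeodomain factor that drives photoreceptor genes, had 140 and 120 CPM in Ythdf1 IPs, 307 and 309 CPM in Ythdf2 IPs, and 178 and 167 CPM in the inputs (-1.25 ± 0.24, adjusted p = 0.0145). Nr2e3, a nuclear receptor of rods, stood at -1.24 ± 0.27 (adjusted p = 0.0233).

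Markers of other cell types were scarce. Lens genes were at 0 in all 4 IPs for 17 of 21, the α-crystallin Cryaa among them, and 0 lens and 0 erythroid genes had enough counts to be tested. Of 14 microglia markers 7 were tested and edgeR called 0, with sums of 21.8 and 20.8 CPM in Ythdf1 IPs, against 25.6 and 31.7 CPM in Ythdf2 IPs. Of 12 pigment cell markers 2 were tested and 0 called, and Rpe65 and Tyr were at 0 in all 4 IPs. The endothelial list had 3 of 15 tested, summing to 585 and 586 CPM in Ythdf1 IPs and 348 and 355 CPM in Ythdf2 IPs. Most of that came from Kdr, which retinal progenitors also express, and the defining markers Emcn and Sox17 were at 0 in all 4 IPs. Cldn5 alone was called, at 1.66 ± 0.37 (adjusted p = 0.0270).

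The called genes differed in base composition, which the choice of genes had not used. The median GC content of the transcript was 55.3% in the 355 higher coding genes, 44.9% in the 928 lower ones and 50.6% in all 11922 tested. Across genes, GC content and the log2 fold change had a Spearman correlation of 0.46, given as a description, since genes are not independent and share the same 4 libraries. At the third codon position the share of G and C was 68.2% in higher genes and 53.1% in lower genes, against 61.2% in all, a contrast that the coding ends of Tmem121 and Selenot above share and those of Gstp1 and Dynlt3, with 13 of 20 each, do not. The 3′ UTR had a median of 49.2% in higher genes and 39.4% in lower genes, against 44.7% in all.

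In 10 bins of GC content the median antibody difference was higher in each bin than in the one before it. In the lowest bin of 1193 coding genes, at up to 42.3% GC, the median log2 fold change was -0.99, and 2 genes were higher and 252 lower. In the highest bin, above 58.5% GC, it was 0.45, and 72 genes were higher and 17 lower. Relative to the mean of the inputs, the lowest bin had a median log2 level of -1.15 and -0.99 in the Ythdf1 IPs and of -0.01 and 0.00 in the Ythdf2 IPs. The Ythdf1 IPs thus sloped across GC content and the Ythdf2 IPs were nearly flat, but the inputs differed between themselves along the same axis. In that bin each input lay 0.65 from their mean, replicate 2 above it, and the mirrored shape follows from taking their mean as 0. The part of library preparation in this gradient was not tested.

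With a smooth trend on GC content removed from each library, an alternative chosen after the data were seen, 821 genes were higher and 1042 lower, 44.1% of calls on the higher side. Of the 407 and 1022 genes called before, 369 and 755 remained called. All 24 leading genes kept their calls, whereas Cnot6l, mt-Nd3, Psma2, Zfp706, Kif2a, Mib1, Fzd1, Cdc42, Pcna, Marcks, Slc8a3 and Slc52a2 lost theirs. The zinc finger genes went to 56 higher and 8 lower of 307.

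**Figure D4:**
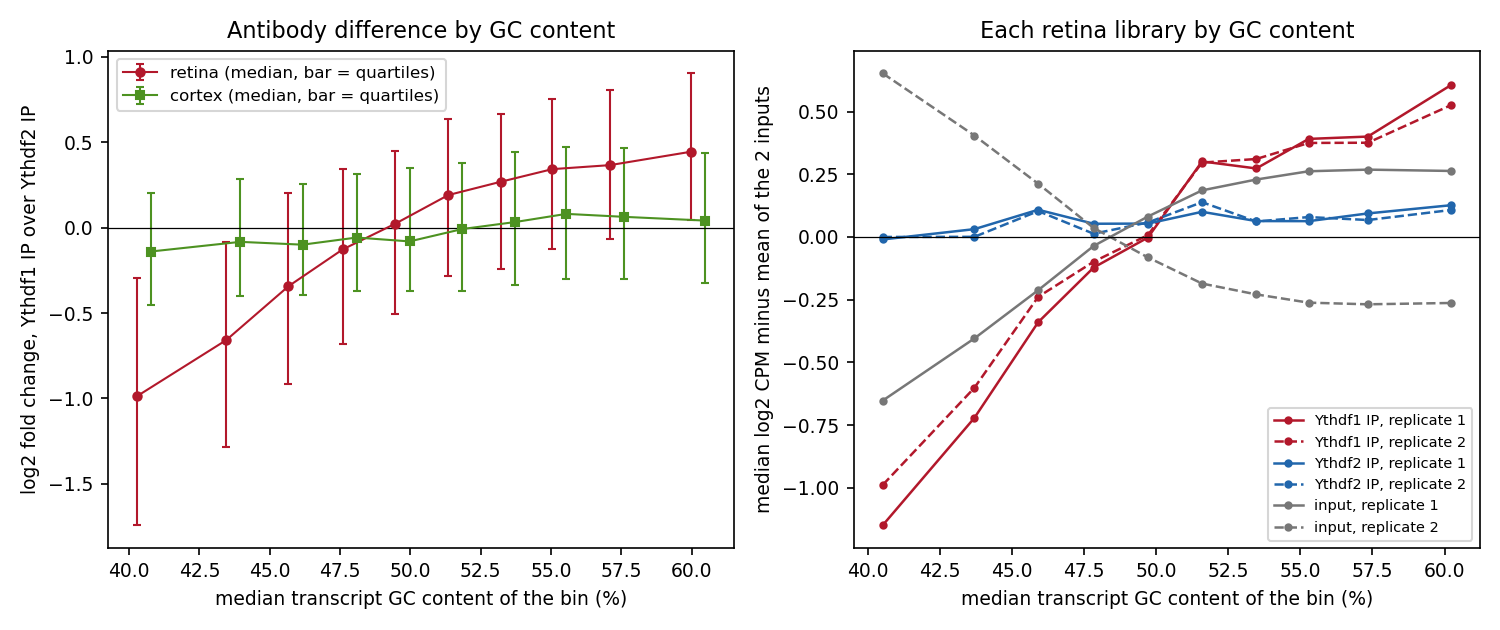
Left, median log2 fold change of the Ythdf1 IP over the Ythdf2 IP in 10 bins of transcript GC content (percent), with bars for the quartiles, in P0 retina (red) and E12.5 cortex (green). Right, median log2 CPM of each retina library minus the mean of the 2 inputs in the same kind of bins, where the Ythdf1 IPs run upwards with GC content, the Ythdf2 IPs stay near 0 and the 2 inputs mirror each other because their mean is set to 0.

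Other properties differed as well. Lower genes had a longer 3′ UTR (median 1642 bases) than higher genes (834 bases), against 1126 bases in all coding genes tested, and a shorter coding sequence (857 bases, against 1251 bases in higher genes and 1431 bases in all). Across coding genes, 3′ UTR length had a Spearman correlation of -0.15 with the log2 fold change, but 0.03 with the GC trend removed. For coding length the values were 0.14 and 0.17, and for total transcript length -0.02 and 0.12. The motif GGACT, searched on the transcript strand as these 5 letters, occurred in 93.5% of higher and 88.6% of lower genes, against 92.8% of all coding transcripts tested. Its density was 1.26 per kilobase in higher genes and 0.88 in lower genes, against 1.05 in all, and GC content, which differed in the same direction, also sets how often the motif occurs. A match is a string of letters and not a methylated site, since m6A was not measured.

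The antibody difference of the retina was not shared by the cortex as a whole. In the 4 cortex IPs, 131 of 16350 genes (0.801%) were higher and 14 (0.0856%) lower in the Ythdf1 IP, and 13 higher and 14 lower when scaled by library totals. The retina fit of the same form, on its 4 IPs alone, called 2323 higher and 2603 lower of 13186 genes. The cortex IPs were uneven, with 2396187 to 12921957 counts in protein-coding genes and 57.9% to 82.7% of counts on ribosomal RNA loci. Over 12678 genes tested in both tissues, the retina and cortex log2 fold changes had a Spearman correlation of -0.04. Of the 397 genes that were higher in the retina and tested in the cortex, 201 had a cortex fold change above 0 (50.6%), as did 597 of the 1002 lower genes (59.6%) and 48.5% of all. The GC gradient was weaker in the cortex, where the Spearman correlation of GC content with the log2 fold change was 0.11, and transcript length had -0.41 there.

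The difference between tissues was tested directly as the antibody difference in retina minus that in cortex over the 8 IPs. It was called higher for 450 of 17069 genes (2.64%) and lower for 954 (5.59%), 8.23% in all. Scaling by library totals gave 1726 higher and 525 lower, and a fit with the replicate number as a block 104 higher and 511 lower. The same 4 retina IPs enter this test and the retina comparison. Tissue and age differ together here, so their parts cannot be told apart. Among the leading genes, Selenot had a log2 fold change of -4.68 in the retina and 0.31 in the cortex, a difference of -4.87 (adjusted p = 0.000965). Arf3 had -3.68 in the retina and 0.00 in the cortex, a difference of -3.57 (adjusted p = 0.000891), and Gsk3b had -2.92 in the retina and -0.32 in the cortex, a difference of -2.49 (adjusted p = 0.00493). On the other side, Disp2 had 2.28 in the retina and -1.20 in the cortex, a difference of 3.64 (adjusted p = 0.00434), and Zfp407, with 2.05 in the retina and -2.60 in the cortex, differed by 4.76 (adjusted p = 0.000784). Strn had -2.13 in the retina and -0.50 in the cortex, and its difference of -1.53 passed at an adjusted p of 0.0305.

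A small set kept its direction. Called in both tissues were 20 genes on the higher side, among them Gstp1 at 2.76 in the retina and 1.84 in the cortex, and Hist3h2ba at 1.44 and 2.27. On the lower side it was 1 gene, Spaca6, a sperm membrane protein by name, at -2.74 in the retina and -1.97 in the cortex. Called in opposite directions were Zfp407 and the U3 copy Rnu3b4, higher in the retina and lower in the cortex, and the spliceosome protein gene Snrpg, the exon junction factor Magoh, Rps7, the growth factor gene Igf2 and the mitochondrial transfer RNA mt-Tl1, lower in the retina and higher in the cortex. These genes were named after their values were seen. Of the 397 genes higher in the retina, 20 were called higher and 2 lower in the cortex. Of the 1002 lower genes, 5 were called higher and 1 lower there. Among all 12678 genes tested in both tissues, 125 were called higher and 10 lower in the cortex. Genes lower in the retina were thus called higher in the cortex no more often than all genes. Igf2 had 17.7 and 20.6 CPM in Ythdf1 IPs, against 49.98 and 47.5 CPM in Ythdf2 IPs of the retina, a log2 fold change of -1.35, and 4.84 in the cortex. Rnu3b4 had 4.29 and 5.81 CPM in Ythdf1 IPs and no count in Ythdf2 IPs of the retina, at least 7.89-fold higher against the floor. The inputs had 976 and 692 CPM, far above both antibodies, and Rnu3b4 entered the test only through its counts in the Ythdf1 IPs.

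**Figure D5:**
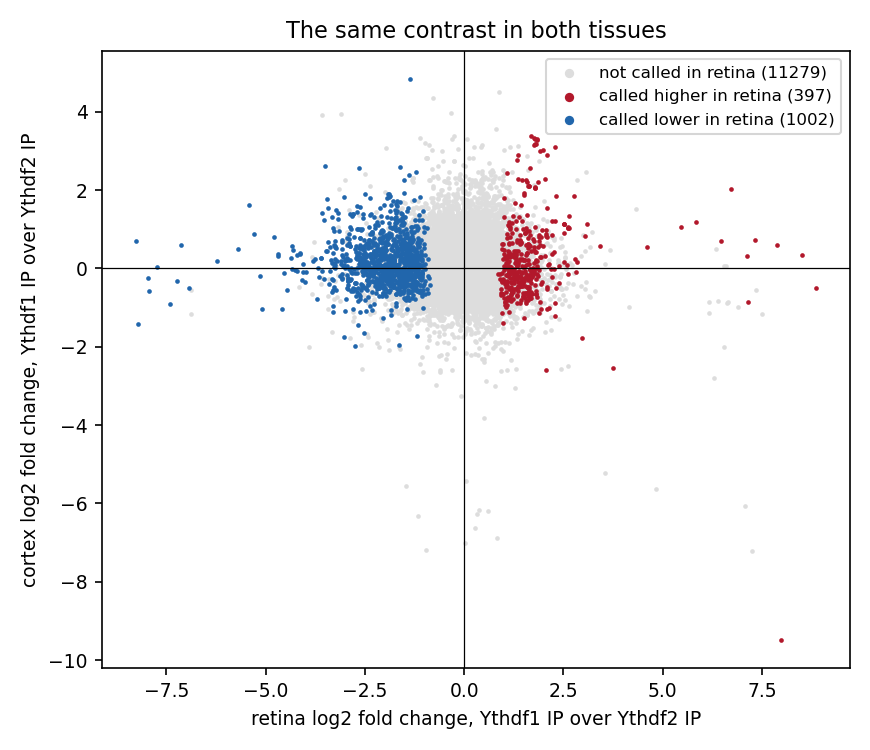
Log2 fold change of the Ythdf1 IP over the Ythdf2 IP in P0 retina (horizontal) and in E12.5 cortex (vertical) for 12678 genes tested in both, with 1 point per gene. The 397 genes called higher in retina (red) and the 1002 called lower (blue) spread about 0 on the cortex axis.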

How the data were processed

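RNA from anti-Ythdf1 and anti-Ythdf2 immunoprecipitates and inputs was sequenced with 2 replicates per group. Per the submitters' processing notes, STAR 2.5 and HTSeq were used with GRCm38; for the annotation release, the strand setting and filters, the sources used here give nothing. The authors deposited raw counts per gene, which were used for all main results, and FPKM, used only for an alternative on log2(FPKM + 1) and log2(FPKM + 0.1). Of 52550 identifiers, 52403 matched GENCODE M21, which gave symbols, classes and 1-based coordinates. The 358 ribosomal RNA locus genes were left out, and genes with 10 or more counts in 2 or more of the 4 retina IPs were kept.

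An edgeR 4.0.16 quasi-likelihood model (robust, R 4.3.3, limma 3.58.1, trimmed mean of M values, 3 residual degrees of freedom) was fitted to the 6 retina libraries, with Benjamini-Hochberg adjustment over all 13186 genes. The cortex comparison used its 4 IPs, and the difference between tissues used the 8 IPs of both. The cortex inputs were kept out of both fits because 71% of the counts of replicate 1 fell on mitochondrial ribosomal RNA. Alternatives, DESeq2 1.42.0 among them, are described in the closing section, and the method was tested on simulated counts. Fold changes are log2, Ythdf1 IP over Ythdf2 IP, ± SE.

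Transcript features came from 1 transcript per gene, the principal coding one of the annotation and the longest among ties. The members and 36 gene lists were chosen with earlier results of these data known. Leading genes were the 12 largest differences in each direction among coding genes past the threshold, at 2-fold or more and 5 CPM or more, with groups not overlapping and no overlapping gene at 10% or more of the counts; each list added up to 2 called members per direction with the smallest p. Depth sets the precision: 3 counts per library were used as the floor, and this floor reflects counting error alone, because the reads carry no molecular identifiers. Replicates differed by more than sampling noise, with a mean chi-square per gene of 6.49 between Ythdf1 IPs and 11.3 between Ythdf2 IPs. It was 103 between the 2 retina inputs, whose spread entered the shared error of the retina fit. Some genes and sequences are not reported here.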

Additional observations from a re-analysis of the deposited data

Results flagged for a closer look

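The antibody difference (log2 of Ythdf1 IP over Ythdf2 IP) differed between P0 retina and E12.5 cortex, by an interaction test in edgeR over the 8 IPs, for 450 genes in the direction of a higher value in retina and for 954 in the direction of a lower one. All values below are the difference in retina minus that in cortex on the log2 scale, each with an adjusted p under 0.05. Tissue and age changed together, and no explanation was tested.

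Among the leading genes on the higher side, Tmem121 at 2.67, Lsm10 at 2.88, Triap1 at 2.90, Disp2 at 3.64 and Dio3 at 3.37 stood apart. Among those on the lower side they were Selenot at -4.87, Dynlt3 at -4.53, Cisd2 at -4.04, Tvp23b at -4.44, Cmpk1 at -4.42 and Mtpn at -4.05. To these came Sh3bgrl at -3.87, Stxbp6 at -3.79, Tmx3 at -2.82, Arf3 at -3.57 and Mmgt1 at -3.40. The other leading genes did not pass, namely Pirt, Gstp1, Pars2, Ninj1, Svbp, Myc and Tppp3 on the higher side and Pkib on the lower side.

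In RNA metabolism the values were Hnrnpa2b1 at -1.33, Tob1 at 2.28, Cnot6l at -1.87 and Cnot4 at -2.17, and for splicing and junction proteins Snrpg at -3.33 and Magoh at -3.63. Ribosomal protein genes gave Rps3a1 at -2.89, Rpl35a at -3.28 and Rps7 at -3.59, and initiation factors Eif4g2 at -2.19 and Eif4a2 at -1.89. Mitochondrial and respiratory genes gave mt-Nd6 at -4.48, mt-Nd3 at -2.88, mt-Tl1 at -3.57, Cox7c at -3.13 and Sdhc at -2.54. Small RNAs gave Scarna2 at -5.08, Snord13 at -3.30 and Gm22009 at -6.91.

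Proteasome subunits gave Psma5 at -3.01, Psma2 at -2.57, Psmb7 at -1.80 and Psmd11 at -1.61, and genes of folding and translocation Hspe1 at -2.57, Dnaja1 at -2.43, Ssr3 at -2.48 and Spcs3 at -1.98. Signalling genes gave Gsk3b at -2.49, Tcf7l2 at -2.69, Rheb at -2.10 and Igf2 at -6.07, and on the positive side Fzd1 at 2.52, Heyl at 1.54 and Efna4 at 2.48. Dendrite, transport and synapse genes gave Strn at -1.53, Cdc42 at -2.55, Rac1 at -2.56, Rhoa at -2.08, Wasf1 at -1.92 and Kif2a at -1.67, with Vamp2 at -3.22, Stmn1 at -2.57 and Dcx at -1.83 beside them. Transcription factors gave Zfp521 at 1.87, Zfp407 at 4.76 and Neurog2 at 1.70, and the remaining genes Pcna at -1.55, Pgam1 at -1.66, Slc8a3 at 1.49, Slc31a1 at -2.14 and Slc25a16 at -1.72.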

How the results depend on the processing

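Of the 100 named genes called in the retina, none changed direction under any alternative run. The alternatives reused the same IP libraries, whose 2 groups did not overlap in any called gene, so a change of direction could hardly occur. The retina calls (407 higher, 1022 lower) became 2323 and 2603 in a fit of the 4 IPs alone and 0 and 0 in a fit of all 12 libraries, where 1930 genes had an unadjusted p under 0.05. DESeq2 called 728 higher, library totals 631, removal of a length trend 624, removal of a GC trend (chosen after seeing the data) 821 and limma on log2(FPKM + 1) 703, the lower counts staying within 1.5 times of 1022. Leaving out 1 replicate each gave 2 to 2206 higher and 43 to 2639 lower, the lone sample being assumed to vary like the others, and 7 of the 100 genes, Pkib, Cisd2, Cmpk1, Mtpn, Arf3, Mmgt1 and Vamp2, were called in all 4 fits without an IP replicate, while 79 were called in none of the 4, all 12 leading higher genes among them. Removing the GC trend ended 12 of the 100 calls.

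The cortex calls (131 higher, 14 lower) became 319 and 27 with 10 counts required in all 4 IPs, 0 and 0 with the 6 cortex libraries (edgeR, 313 at an unadjusted p under 0.05), 300 higher with DESeq2 and 13 higher with library totals, and leaving out 1 replicate each gave 81 to 522 higher and 13 to 207 lower. The difference between tissues (450 higher, 954 lower) became 847 higher with DESeq2 and 1726 higher and 525 lower with library totals, and leaving out 1 replicate each gave 21 to 1198 higher and 218 to 1262 lower. The fit of the 6 cortex libraries and that of all 12 libraries both hold cortex input replicate 1, with 71% of its counts on mitochondrial ribosomal RNA. Which cause underlies these shifts was not tested. With 3 residual degrees of freedom and at most 3841319 protein-coding counts per IP in the retina, genes near the floor of 3 counts could not be compared.

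Replicate numbers were not used as pairs in the main fits. The deviations of same-numbered retina libraries correlated at -0.01 between the Ythdf1 and Ythdf2 IPs, 0.11 between Ythdf1 IPs and inputs and -0.02 between Ythdf2 IPs and inputs. Those of cortex libraries correlated at -0.05, 0.04 and 0.04 for the same pairs. Such values cannot show whether same-numbered libraries shared a preparation, which the labels do not say. A fit with the replicate number as a block gave 397 higher and 1094 lower genes in the retina, 76 higher and 13 lower in the cortex, and 104 higher and 511 lower for the difference between tissues.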
